A study of Mus musculus with 12 samples.

Results

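Follicular regulatory T cells are regulatory T cells (Tregs) that enter B cell follicles, and they share part of their gene programme with follicular helper T cells. Expression of 9 genes of that programme, Cxcr5, Bcl6, Il21, Il4, Il1r2, Il1rn, Sostdc1, Tox2 and Sh2d1a, was followed through 12 RNA-seq libraries of sorted mouse Tregs. The genes were chosen by symbol, with earlier results of these data known, so the shares of all genes set beside them are a description. Each has 1 row among the 24421 gene symbols of the count table. All 9 were among the 12461 genes that passed the filter on low counts and were tested.

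In textbook accounts, the transcriptional repressor BCL6 drives the follicular programme, and the chemokine receptor CXCR5 guides cells towards the B cell follicle. Interleukin-2 acts through a receptor whose alpha chain is CD25 and through the transcription factor STAT5, and this signal opposes BCL6, partly through the antagonist factor Blimp-1, encoded by Prdm1. Follicular helper cells supply B cells with interleukin-21 and interleukin-4, whereas follicular regulatory cells restrain the germinal centre reaction and can carry the interleukin-1 decoy receptor.

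The question addressed by the libraries is how loss of CD25 in Tregs alters their subsets. Wild-type (WT) and knockout (KO) Tregs were each divided by a surface marker gate into central Tregs (cTreg) and effector Tregs (eTreg), with 3 libraries in each of the 4 groups. All groups carried R26tomato+/+ and Foxp3eGFPERT2+/+ and, per the labels, received 2 mg/kg tamoxifen intraperitoneally for 5 days, with harvest 10 days later. Ages were not given in the labels. Each library pooled spleen and lymph nodes of 2 to 3 mice, and live CD4+ cells were sorted by their GFP and tdTomato reporters. KO cells were in addition taken from the CD25-low gate, so the deletion and that gate cannot be told apart. The genotype field names CD25WT/WT for the libraries titled KO and CD25FL/FL for those titled WT, the reverse of the titles, and the groups here follow the titles. Il2ra, which encodes CD25, ranged from 464 to 579.6 CPM (counts scaled to library size) in the 6 WT libraries and from 112 to 131 CPM in the 6 KO libraries.

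Total counts per library ranged from 14567313 to 19121577. The ribosomal RNA precursor Rn45s took 18.1% to 24.4% of counts in cTreg libraries and 3.19% to 4.34% in eTreg libraries. Foxp3, the defining Treg factor, averaged 392 CPM in WT and 227 in KO cTreg, and 244 in WT and 176 in KO eTreg, and its part in the differences below was not tested. Among markers of cells outside the gate, the basophil and mast cell genes Mcpt8, Fcer1a and Gata2 had no count in any library. The summed level of the 10 B cell markers was 11.8 to 12.7 CPM in WT and 7.70 to 9.75 in KO cTreg, and 15.9 to 16.2 in WT and 9.82 to 12.2 in KO eTreg. Ms4a1 and Fcer2a were at 0 throughout cTreg, and only Fcrla was at 0 throughout eTreg. The summed level of the 5 dendritic cell markers was ordered like the follicular genes, at 0.288 to 0.561 CPM in WT and 0.670 to 1.52 in KO cTreg, and 4.19 to 5.65 in WT and 5.67 to 6.98 in KO eTreg. Zbtb46 and Xcr1 made up most of these sums, and Flt3, Siglech and Batf3 each stayed at or near 0. Zbtb46 rose in KO eTreg by 0.88 ± 0.24 on the log2 scale (edgeR adjusted p of 0.0385). Only 2 of the 5 markers were tested, and the other had a log2 fold change of -0.56 in KO eTreg and was not called. The part of dendritic cells in the differences below was not tested.

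CD25 loss went with a higher level of most follicular genes in cTreg, from about a doubling of Bcl6, Cxcr5 and Sh2d1a to fitted rises of more than 10-fold in Il21, Il4, Il1r2 and Sostdc1. In KO against WT cTreg, 8 of the 9 genes rose, against 14.8% of all genes tested. The same 8 genes had all 3 KO libraries above all 3 WT libraries, against 20.9% of all genes tested. The median log2 fold change was 2.65 over the 9 genes and 0.00 over all genes tested. That 2.65 is the value of Il1rn, which was not called and had 9 summed counts in KO cTreg against 1 in WT cTreg. The values on either side of it were 2.48 for Tox2 and 3.43 for Il1r2. In KO against WT eTreg, 4 of the 9 genes rose, against 3.25% of all genes tested, and all 9 fitted changes were above 0. In eTreg 8 of the 9 had non-overlapping groups with KO above WT, against 13.5% of all genes tested, and the median log2 fold change was 0.73 against 0.01 over all genes. In bulk libraries such as these, more cells of a kind and more RNA per cell cannot be told apart.

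**Figure D1:**
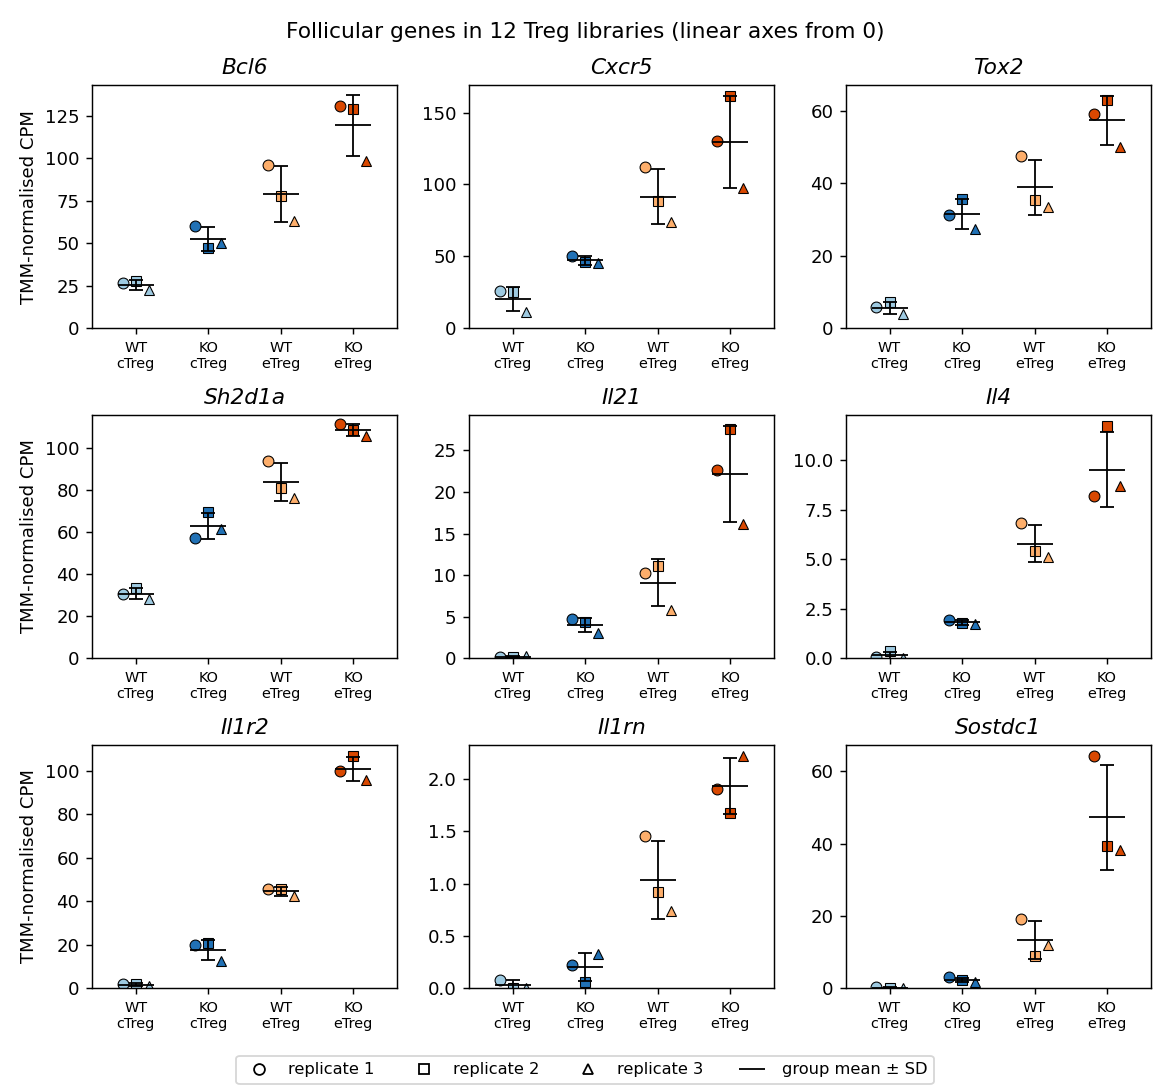
CPM of each of the 9 follicular genes in the 12 libraries, on linear axes that start at 0 and differ between panels. Points are libraries, with marker shape giving the replicate number, and bars are group means ± SD (n = 3). Each gene has its lowest mean in WT cTreg and its highest in KO eTreg, and the KO and WT eTreg points of Cxcr5 overlap.

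Bcl6, at chromosome 16, 23965052 to 23988852 on the minus strand (mm10), encodes the repressor that defines the programme. Both of its start regions in the RefSeq table were compared because interleukin-2 signalling and BCL6 are linked through STAT5, whose dimers are known to bind TTCNNNGAA. The 250 bases before each start are given 5′ to 3′ on the minus strand from RefSeq on GRCm38.p6, the patched form of the mm10 build. Capitals mark TTCNNNGAA, a palindrome that reads the same on both strands.
Bcl6, chr16:23988853-23989102: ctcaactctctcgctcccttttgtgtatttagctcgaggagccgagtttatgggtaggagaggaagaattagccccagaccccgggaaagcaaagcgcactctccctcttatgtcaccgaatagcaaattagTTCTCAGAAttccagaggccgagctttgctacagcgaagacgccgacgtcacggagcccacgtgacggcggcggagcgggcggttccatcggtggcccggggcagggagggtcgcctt
Bcl6, chr16:23981284-23981533: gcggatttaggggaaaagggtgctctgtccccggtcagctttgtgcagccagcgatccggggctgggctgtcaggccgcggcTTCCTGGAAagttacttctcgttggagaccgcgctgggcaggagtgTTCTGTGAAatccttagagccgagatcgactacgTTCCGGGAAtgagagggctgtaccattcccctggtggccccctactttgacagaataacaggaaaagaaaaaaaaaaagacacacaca
The first stretch lies just outside the annotated gene. The other lies inside the gene between exons and holds 3 matches, at 168, 122 and 88 bases before its start. Of the 32851 promoter windows in the RefSeq table, each with 250 bases before and 50 bases after a start, 8.30% hold at least 1 match and 11 hold at least 3. Among the 14 windows listed for 6 of the genes, 1 each for Il1r2 and Il4 also hold a match, and those for Il21, Il1rn and Tox2 hold none. Both of these windows lie inside the annotated gene. The stretch before the start overlaps an exon for Il1r2 and lies between exons for Il4. The other Il4 window, at the 5′ end of the annotated gene, holds no match. These 2 matches begin 111 bases before a listed start of Il1r2 and 4 bases before a listed start of Il4, and are given on the strand of the gene with 10 bases on each side.
Il1r2, chr1:40085972-40086000, plus strand: cgggtgctttTTCAAGGAActtccgacta
Il4, chr11:53617324-53617352, minus strand: agttcctgttTTCATGGAAacacaccact
A match describes the letters alone, and no binding was measured.

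In WT cTreg replicates 1, 2 and 3, Bcl6 stood at 26.5, 27.7 and 22.3 CPM. In KO cTreg it stood at 60.2, 47.2 and 50.2 CPM. The groups did not overlap, and Bcl6 rose with a log2 fold change of 1.04 ± 0.19 (SE), with an adjusted p of 0.00285 by the quasi-likelihood test of edgeR, Benjamini-Hochberg adjusted, which is the test behind each adjusted p given here unless another is named. WT eTreg replicates held 96.1, 78.0 and 63.2 CPM and KO eTreg replicates 131, 129 and 98.7 CPM. Every KO eTreg library lay above every WT eTreg library, with KO replicate 3 only just above WT replicate 1. The eTreg log2 fold change was 0.60 ± 0.16, with an adjusted p of 0.0655, and in a fit of the 6 eTreg libraries blocked on replicate number it was 0.59 ± 0.05, with an adjusted p of 4.31e-06.

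Cxcr5, at chromosome 9, 44511787 to 44561877, encodes the receptor for the follicle chemokine CXCL13. Its WT cTreg replicates were at 25.6, 24.9 and 11.0 CPM, and its KO cTreg replicates at 50.5, 45.9 and 45.2 CPM. WT replicate 3 was well below its partners, and all KO libraries lay above all WT libraries. Cxcr5 rose in KO cTreg with a log2 fold change of 1.20 ± 0.33 and an adjusted p of 0.0256, a call that was lost without any 1 of the 3 KO cTreg libraries (adjusted p of 0.0577 to 0.0629) or when only the 6 cTreg libraries were fitted (0.0560). In eTreg it stood at 112, 88.4 and 74.0 CPM in WT and 129.9, 162 and 97.8 CPM in KO. KO replicate 3 fell within the WT range, and the log2 fold change of 0.51 ± 0.27 had an adjusted p of 0.365 and an interval of -0.11 to 1.13 at 95% confidence, so a doubling was within the interval.

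Tox2, at chromosome 2, 163203125 to 163324170, encodes an HMG-box factor known to sustain the follicular helper programme. It stood at 5.85, 7.21 and 3.84 CPM in WT cTreg and at 31.3, 35.8 and 27.5 CPM in KO cTreg. The groups were far apart, and Tox2 rose with a log2 fold change of 2.48 ± 0.22 and an adjusted p of 1.49e-05. Its eTreg values were 47.6, 35.4 and 33.6 CPM in WT and 59.2, 63.0 and 49.9 CPM in KO. These groups did not overlap, although the log2 fold change of 0.57 ± 0.17 had an adjusted p of 0.0745. With the replicate block in the eTreg libraries it was 0.56 ± 0.09, with an adjusted p of 0.00203.

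Sh2d1a, on chromosome X at 42502453 to 42529330, encodes SAP, the adaptor through which SLAM-family receptors signal during contact between T and B cells. WT cTreg libraries held 30.6, 33.4 and 28.3 CPM and KO cTreg libraries 57.3, 69.5 and 61.7 CPM. Values within a group were close together, and the groups did not overlap. Sh2d1a rose in KO cTreg by 1.03 ± 0.09 on the log2 scale, with an adjusted p of 6.95e-07. In eTreg it stood at 93.9, 81.1 and 76.5 CPM in WT and 112, 109 and 106 CPM in KO, again without overlap, and it rose by 0.38 ± 0.08, with an adjusted p of 0.00909.

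The B cell help cytokines were near the detection limit in WT cTreg. Il21, at chromosome 3, 37222759 to 37232636, encodes interleukin-21, which drives germinal centre B cells. It had 2, 2 and 3 counts in the WT cTreg libraries and 63, 71 and 46 counts in the KO cTreg libraries, or 0.160, 0.144 and 0.230 CPM against 4.67, 4.33 and 3.03 CPM. All KO libraries were above all WT libraries, and summed counts of 180 against 7 gave a ratio of 22.5 after scaling, with an interval for counting error alone of 10.7 to 56.7 (Clopper-Pearson, 95%). Il21 rose with a log2 fold change of 4.43 ± 0.55 and an adjusted p of 6.73e-05. Its eTreg values were 10.3, 11.1 and 5.82 CPM in WT and 22.7, 27.6 and 16.2 CPM in KO, without overlap. Il21 rose in KO eTreg by 1.29 ± 0.23 on the log2 scale, with an adjusted p of 0.00536, which became 0.0623 when only the 6 eTreg libraries were fitted without a block.

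Il4, at chromosome 11, 53602982 to 53618669, encodes interleukin-4, the class-switch cytokine of type 2 and follicular helper cells. WT cTreg libraries had 1, 5 and 0 counts and KO cTreg libraries 26, 29 and 26 counts. The KO libraries were alike and all above WT, with a scaled ratio of summed counts of 11.8 (counting interval 5.19 to 33.1). Il4 rose with a log2 fold change of 3.50 ± 0.50 and an adjusted p of 5.85e-05. In eTreg it stood at 6.84, 5.39 and 5.09 CPM in WT and 8.19, 11.7 and 8.70 CPM in KO. The eTreg groups did not overlap, and the log2 fold change of 0.73 ± 0.22 had an adjusted p of 0.0526, or 0.72 ± 0.15 and 0.00536 with the replicate block. Basophils and mast cells also make interleukin-4, and their summed markers stayed at or below 0.170 CPM in every library. The part of these cells in the Il4 difference was not tested.

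Il1r2, at chromosome 1, 40074079 to 40125231, encodes the decoy receptor that binds interleukin-1 without signalling. Il1r2 stood at 2.08, 1.87 and 0.922 CPM in WT cTreg and at 19.7, 20.7 and 12.3 CPM in KO cTreg. Replicate 3 was lowest in both groups, yet KO replicate 3 was far above every WT library. Il1r2 rose with a log2 fold change of 3.43 ± 0.26 and an adjusted p of 3.13e-06. Its eTreg values were 45.7, 45.5 and 42.2 CPM in WT and 99.9, 107 and 95.8 CPM in KO. These groups were tight and separate, and it rose by 1.18 ± 0.14, with an adjusted p of 6.30e-04.

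Il1rn, at chromosome 2, 24336853 to 24351494, encodes the secreted interleukin-1 receptor antagonist and was the rarest of the 9 transcripts. It had 1, 0 and 0 counts in WT cTreg and 3, 1 and 5 counts in KO cTreg. These groups overlapped in CPM, with WT replicate 1 at 0.0802 CPM and KO replicate 2 at 0.0609 CPM. The log2 fold change of 2.65 ± 1.10 had an adjusted p of 0.0863, and the scaled count ratio of 7.86 had a counting interval of 1.09 to 344.5. In eTreg it stood at 1.45, 0.922 and 0.735 CPM in WT and 1.90, 1.68 and 2.22 CPM in KO, without overlap, with a log2 fold change of 0.91 ± 0.34 and an adjusted p of 0.136. Neutrophils and macrophages also express Il1r2 and Il1rn. The summed level of the 9 myeloid markers was 2.52 to 4.45 CPM in WT and 4.67 to 11.1 in KO cTreg, and 2.88 to 5.85 in WT and 2.49 to 7.03 in KO eTreg. S100a8, S100a9 and Cd14 had no count in KO cTreg. Itgam rose there by 1.66 ± 0.51 on the log2 scale with an adjusted p of 0.0300 (up to 0.108 without WT replicate 1 or 2 or KO replicate 2 or 3). Only 2 of the 9 were tested, and the other had a log2 fold change of 0.91 in cTreg and was not called. The part of myeloid cells in the Il1r2 and Il1rn differences was not tested.

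Sostdc1, at chromosome 12, 36314139 to 36318452, encodes a secreted antagonist of BMP and WNT ligands that has been used to mark follicular T cells. It had 4, 2 and 0 counts in WT cTreg and 40, 35 and 26 counts in KO cTreg. All KO libraries were above all WT libraries, with a scaled count ratio of 14.7 (counting interval 6.52 to 41.0). The log2 fold change was 3.82 ± 1.01, with an adjusted p of 0.0208, a call lost on leaving out replicate 2 or 3 of the WT group, or replicate 1 or 2 of the KO group (adjusted p of 0.0590 to 0.0744), and with limma-voom (0.0698). In eTreg it stood at 19.0, 8.85 and 11.9 CPM in WT and 64.2, 39.5 and 38.2 CPM in KO. The lowest KO eTreg library was above the highest WT one, and Sostdc1 rose by 1.85 ± 0.30, with an adjusted p of 0.00740, or 0.0670 when only the 6 eTreg libraries were fitted without a block.

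With the replicate block in the 6 eTreg libraries, 7 of the 9 genes rose in KO eTreg, against 7.54% of the genes tested in that fit. Bcl6, Il4 and Tox2 were added to the 4 called without it, and Cxcr5 (adjusted p of 0.204) and Il1rn (0.0580) were not called in either fit. Without the 4 libraries numbered 3, the genes that rose were 7 of 9 in cTreg and 2 of 9 in eTreg. Over all genes tested in that setting, 784 rose in cTreg and 61 in eTreg.

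**Figure D2:**
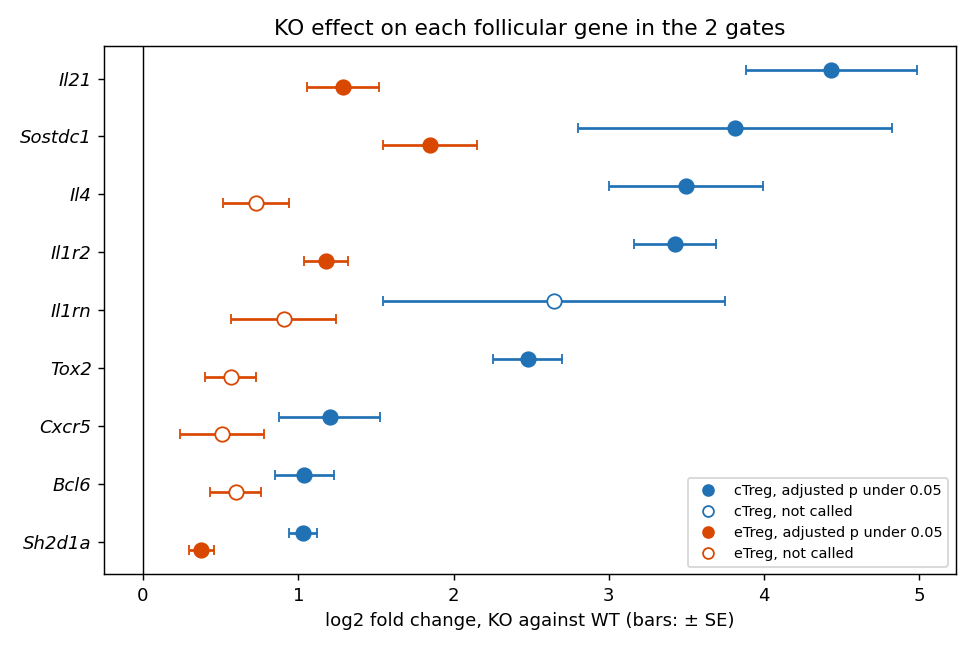
Log2 fold change of KO against WT for each gene in cTreg and in eTreg, with bars of ± SE. Filled points have an adjusted p under 0.05 by edgeR and open points do not. Each cTreg point lies to the right of its eTreg point, with Il21 farthest right in cTreg at 4.43.

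The size of the KO difference was compared between the 2 gates by an interaction term, since a call in one gate and not in the other does not show a difference. As a log2 fold change, the eTreg effect was smaller than the cTreg effect for 5 of the 9 genes, against 3.00% of all genes tested with a lower value. These were both B cell help cytokines Il21 and Il4, the decoy receptor Il1r2, the factor Tox2 and the adaptor Sh2d1a. As a difference of mean CPM, KO minus WT was larger in eTreg than in cTreg for Il21 (13.1 against 3.83), Il4 (3.76 against 1.66) and Il1r2 (56.3 against 15.9), and smaller for Tox2 (18.5 against 25.9) and Sh2d1a (24.8 against 32.1). The log2 difference was -2.25 ± 0.32 for Il1r2 (adjusted p of 0.00221), -1.91 ± 0.28 for Tox2 (0.00333) and -0.66 ± 0.12 for Sh2d1a (0.00395). For the regulator Bcl6 it was -0.44 ± 0.25 (adjusted p of 0.430), and for Cxcr5 it was -0.69 ± 0.42 (0.470), so no difference between gates was detected for either. Sostdc1, at -1.97 ± 1.21 (0.470), and Il1rn, at -1.74 ± 1.16 (0.489), had wide errors and only 6 and 1 summed counts in WT cTreg. The calls for Il21 and Il4 also rest on few counts there, 7 and 6 summed. In 20 alternative settings the Il21 call was lost in 5 and the Il4 call in 1.

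The follicular genes were higher in eTreg than in cTreg in both genotypes. In WT all 9 rose from cTreg to eTreg, against 35.7% of all genes tested, and all 9 groups were separate, against 37.4%. Il1rn is among the 9 in WT and in KO. It passed the filter on low counts only through eTreg, so its direction between the gates carries no evidence. The log2 differences in WT ranged from 1.44 ± 0.09 for Sh2d1a and 1.63 ± 0.19 for Bcl6 to 5.62 ± 0.48 for Il21 and 6.36 ± 0.71 for Sostdc1, the fitted values for the last 2 resting on few WT cTreg counts. In KO all 9 also rose, against 36.1% of all genes tested, with separate groups for all 9, against 37.5%. The KO range was 0.79 ± 0.08 for Sh2d1a to 4.39 ± 0.39 for Sostdc1. Adjusted p-values were at most 2.44e-04 in WT and at most 0.00146 in KO. These contrasts share libraries with the KO contrasts, so they are not separate evidence.

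KO cTreg were set beside WT eTreg to place the raised central levels on the scale of effector cells with CD25 intact. Of the 9 genes, 8 were lower in KO cTreg, against 35.1% of all genes tested, and the same 8 had all KO cTreg libraries below all WT eTreg libraries, against 37.0% of all genes tested. Il1rn is among these 8, and it passed the filter on low counts only through eTreg, so its direction carries no evidence. As a share of the WT eTreg mean, KO cTreg reached 81.1% for Tox2, 75.0% for Sh2d1a and 66.4% for Bcl6, where WT cTreg stood at 14.5%, 36.7% and 32.2%. The share was 51.6% for Cxcr5, 44.2% for Il21, 39.5% for Il1r2 and 31.2% for Il4, and it was lowest for Il1rn at 19.7% and Sostdc1 at 17.1%. For Tox2 the groups overlapped, with a log2 difference of -0.30 ± 0.17 (adjusted p of 0.146, 95% interval -0.68 to 0.08). For Sostdc1, at the other end, the difference was -2.54 ± 0.42 (adjusted p of 3.88e-04), and for Cxcr5 it was -0.95 ± 0.29 (0.0152), a call lost without WT eTreg replicate 1 (0.0527).

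**Figure D3:**
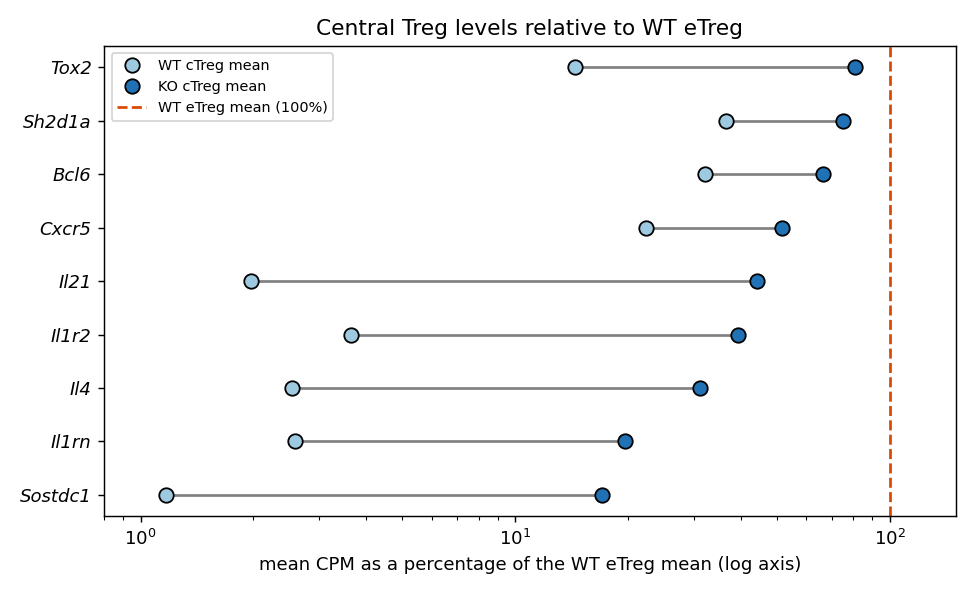
Mean CPM of each gene in WT cTreg and KO cTreg as a percentage of its mean in WT eTreg, on a log axis, with the dashed line at 100%. KO cTreg lies to the right of WT cTreg for each gene and ranges from 17.1% for Sostdc1 to 81.1% for Tox2.

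Scaled per kilobase of merged exon length (RPKM), the genes could be ordered within a group. In KO eTreg the mean levels were 52.8 ± 2.88 RPKM (SD, n = 3) for Il1r2, 38.9 ± 9.57 for Cxcr5, 26.5 ± 8.22 for Sostdc1, 19.7 ± 0.553 for Sh2d1a, 17.8 ± 2.69 for Bcl6, 16.9 ± 1.99 for Tox2, 7.77 ± 1.55 for Il4, 4.21 ± 1.09 for Il21 and 0.349 ± 0.049 for Il1rn. The decoy receptor was thus the most abundant of these transcripts per length, and neighbours from Cxcr5 to Tox2 differed by less than their summed SDs. In WT eTreg the order was Cxcr5 at 27.4 ± 5.72 RPKM and Il1r2 at 23.3 ± 1.02, which did not differ beyond their spread, then Sh2d1a at 15.2 ± 1.64, Bcl6 at 11.8 ± 2.46, Tox2 at 11.4 ± 2.25 and Sostdc1 at 7.45 ± 2.92, with Il4, Il21 and Il1rn below. In KO cTreg it was Cxcr5 at 14.2 ± 0.873 RPKM, Sh2d1a at 11.4 ± 1.13, Tox2 at 9.27 ± 1.22, Il1r2 at 9.20 ± 2.42 and Bcl6 at 7.84 ± 1.02, and the other 4 were at 1.47 RPKM or less. In WT cTreg the order was led by Cxcr5 at 6.14 ± 2.47 RPKM and Sh2d1a at 5.59 ± 0.464, which did not differ beyond their spread, followed by Bcl6 at 3.80 ± 0.416, Tox2 at 1.66 ± 0.498 and Il1r2 at 0.852 ± 0.325. Il4, Sostdc1, Il21 and Il1rn were each at 0.120 RPKM or less there.

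Within groups, the genes tended to vary together between replicates. Replicate 3 held the lowest value of a gene in 28 of 36 gene-by-group combinations, against 30.4% of such combinations over all genes tested. The counts were 7 of 9 in WT cTreg, 6 in KO cTreg, 8 in WT eTreg and 7 in KO eTreg. The labels do not say what a replicate number marks. In WT eTreg, 8 of the 9 genes were highest in replicate 1. Of the wider list of follicular genes, replicate 3 was lowest in 47 of 88 combinations, and of the genes that oppose or are repressed by BCL6 in 14 of 68.

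**Figure D4:**
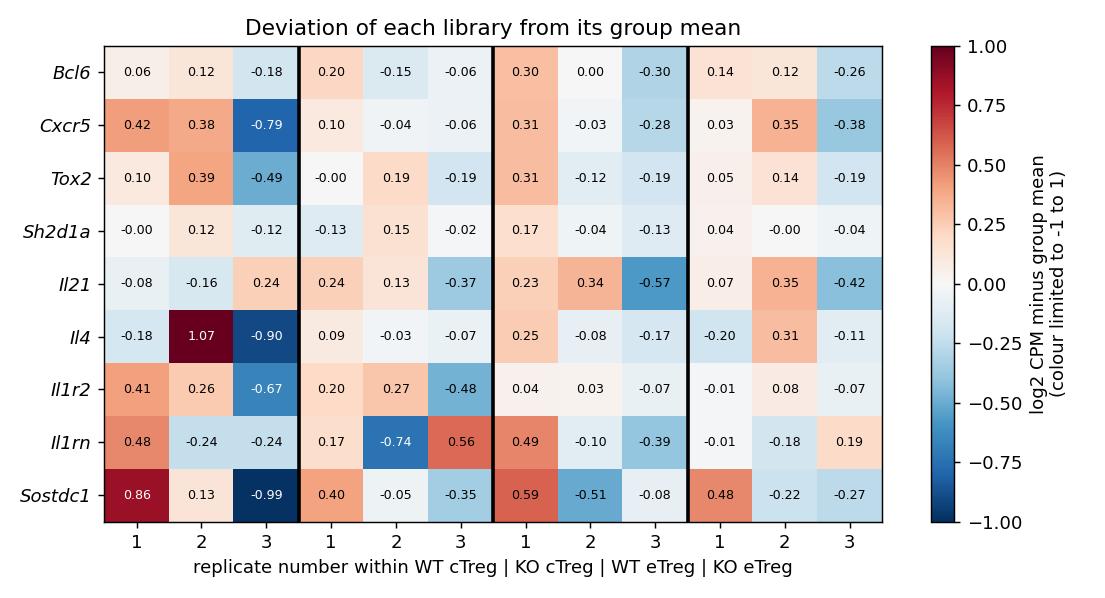
Deviation of the log2 CPM of each gene from its group mean in each of the 12 libraries, with the 3 libraries of a group side by side and the value printed in each cell. Blue cells, below the group mean, are most frequent in the columns of replicate 3, which hold the lowest value in 28 of 36 combinations.

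The genes with the most similar pattern to each member over the 12 libraries were found by the root mean square difference of centred log2 CPM. They were sought among 8506 genes whose log2 CPM averaged 3 or more. Left out of these were predicted and Rik genes, receptor and immunoglobulin segments, numbered ribosomal protein genes, pseudogene-like symbols and month-like names. Bcl6 was nearest to Rnf19a (0.169) and Pde7a (0.169), against its own spread of 0.838, and Sh2d1a to Syt11 (0.10) and Rnf19a (0.133). Cxcr5 was nearest to Casp1 (0.276), the inflammatory caspase, and Pdcd1 (0.278), which encodes PD-1 and is high in follicular T cells. Tox2 was nearest to Angptl2 (0.180). Il21 and Il4 shared near neighbours in Il1r2 (0.420 and 0.411) and in Cxcr6 (0.664 and 0.400), a chemokine receptor of tissue-homing T cells. The nearest gene to Il1r2 was Tigit (0.470), an inhibitory receptor, and that to Il1rn was Eea1 (0.469). Sostdc1 was nearest to Il1r2 but at a wider distance (0.799). The 12 libraries share 4 groups, so the distances are a description and carry no test.

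Other genes of the follicular programme were read from a list of 22, all of them tested, which leaves out the 9 above. This list, like those that follow, was chosen with earlier results of these data known. In KO cTreg 16 rose and 2 fell, where 14.8% of all genes tested rose and 12.6% fell, with a median log2 fold change of 0.67. In KO eTreg 6 rose and 1 fell, where 3.25% of all genes rose and 3.40% fell, with a median of 0.24. With the replicate block in the eTreg libraries, 12 rose and 2 fell, where 7.54% of all genes rose and 6.48% fell, and without WT eTreg replicate 2 only 4 were called. Pou2af1, a B and T cell coactivator, rose by 2.15 ± 0.19 in cTreg (adjusted p of 1.66e-06) and by 1.05 ± 0.15 in eTreg (6.64e-04), from means of 3.48 to 15.5 CPM and of 14.8 to 30.6 CPM. It is also a B cell gene. The summed B cell markers above were lower in KO than in WT in both gates. Only 2 of the 10 passed the filter and were tested, and in eTreg their log2 fold changes were -0.64 and 0.58. The part of B cells in the Pou2af1 difference was not tested. Maf, which drives Il21 and Il4 in helper cells, rose by 1.98 ± 0.16 in cTreg (1.39e-05). Batf rose by 0.60 ± 0.08 in eTreg (1.85e-04). The follicular receptors Pdcd1 and Icos rose in cTreg by 1.31 ± 0.14 (3.83e-05) and 1.93 ± 0.19 (6.89e-05). Il6ra, the interleukin-6 receptor, fell by 0.31 ± 0.08 in cTreg (0.00743), as did its partner Il6st by 0.19 ± 0.06 (0.0230). The others that rose in eTreg were Pdcd1, Slamf6, Tcf7 and Stat3, by 0.29 to 0.48 on the log2 scale, and Il6ra fell there by 0.32 ± 0.08 (0.0225). Some of these calls depended on 1 library. Il6st was lost in cTreg without WT replicate 1 or KO replicate 2 or 3 (up to 0.0896), and Il6ra in eTreg without WT replicate 2 or KO replicate 1 or 3 (up to 0.107). In eTreg, Pdcd1 was lost without replicate 2 or 3 of WT eTreg, replicate 1 of KO cTreg or any 1 library of KO eTreg (up to 0.0996), and Tcf7 without WT eTreg replicate 2 or 3 (up to 0.0719).

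Genes that oppose BCL6, or that BCL6 is known to repress, moved in both directions. Of 17 tested, 9 rose and 3 fell in KO cTreg, with 14.8% and 12.6% of all genes doing so, and 3 rose and 2 fell in KO eTreg, with 3.25% and 3.40% of all genes doing so. The medians were 0.53 and 0.10. With the replicate block in the eTreg libraries 7 rose and 3 fell there, where 7.54% of all genes rose and 6.48% fell. Without WT eTreg replicate 2 only 3 were called. Prdm1, the BCL6 antagonist, rose with Bcl6 in cTreg, by 1.85 ± 0.13 (adjusted p of 6.34e-07), and in eTreg rose by 0.65 ± 0.11 (0.00287). Its means were 11.4 and 41.1 CPM in WT and KO cTreg, and 58.3 and 91.4 CPM in WT and KO eTreg. Tbx21, the type 1 factor T-bet, rose by 2.77 ± 0.19 in cTreg (8.72e-08) and by 0.67 ± 0.15 in eTreg (0.0126, or up to 0.0577 without WT eTreg replicate 1 or 2). Runx2 rose in both gates, by 1.64 ± 0.09 (6.65e-09) and 0.63 ± 0.08 (1.75e-04). Ccr7, the receptor that keeps T cells in the T zone, fell by 0.61 ± 0.07 in cTreg (7.57e-06) and by 0.47 ± 0.07 in eTreg (0.00105). The others that fell were Il2rb, a chain of the interleukin-2 receptor, by 0.39 ± 0.05 in cTreg (3.93e-05), and Foxo1, by 0.23 ± 0.04 in cTreg (0.00105) and 0.17 ± 0.04 in eTreg (0.0252, or up to 0.126 on omitting replicate 1 or 2 of the WT group or any 1 KO library).

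Relatives of the individual genes were read in the same way. Of the 8 tested SLAM receptor and SAP family genes, 3 rose in KO cTreg, against 14.8% of all genes, and 2 in KO eTreg, against 3.25%. Without KO cTreg replicate 3 only 1 was called in cTreg. Slamf6, a receptor that signals through SAP, rose by 0.70 ± 0.07 in cTreg (adjusted p of 1.59e-06) and by 0.39 ± 0.07 in eTreg (0.00210). The kinase Fyn, which SAP recruits, rose by 0.26 ± 0.05 in eTreg (0.00366) and by 0.16 ± 0.05 in cTreg (0.0200, or up to 0.0735 without WT replicate 1 or KO replicate 2 or 3), and Sh2d2a rose in cTreg by 0.17 ± 0.05 (0.00983, or 0.0604 without KO replicate 3). Of 9 interleukin-1 family ligands and receptors, 4 rose in KO cTreg, against 14.8% of all genes. In eTreg 0 were called by edgeR, DESeq2 or limma-voom, with 2 at an unadjusted p under 0.05. The replicate block called 1, Il1r1, with a rise of 0.81 ± 0.15 (0.00210), where 7.54% of all genes rose. Leaving out KO eTreg replicate 3 also gave 1 call. Il1r1, the signalling counterpart of the decoy receptor, had 80 summed counts in KO cTreg against 3 in WT cTreg, a scaled ratio of 23.3 (counting interval 7.69 to 115), and rose with an adjusted p of 3.07e-04. The other 3 were Il18rap, by 1.88 ± 0.32 (0.00234), Il1rl2, by 0.78 ± 0.18 (0.00407), and Il18r1, by 0.69 ± 0.20 (0.0306, or up to 0.113 without WT replicate 1 or 3 or KO replicate 2 or 3). Tox and Tox4, relatives of Tox2, each rose by 0.25 ± 0.05 and 0.25 ± 0.04 in cTreg (8.76e-04 and 4.57e-04). Of 7 cytokines and genomic neighbours of Il4 and Il21, 3 rose and 2 fell in KO cTreg, against 14.8% and 12.6% of all genes, and only 3 were called without WT cTreg replicate 2. In eTreg 0 were called by edgeR, DESeq2 or limma-voom, or reached an unadjusted p under 0.05. The replicate block called 1, Il10, with a rise of 0.36 ± 0.09 (0.0169), where 7.54% of all genes rose. Il10, the suppressive cytokine, had 126 summed counts against 5, a ratio of 22.0 (9.19 to 69.0), Ifng a ratio of 5.46 (3.20 to 9.92) and Il2 38 counts against 8, with an Il2 call lost without WT replicate 2 or 3 or KO replicate 1 or 2 (adjusted p up to 0.133). NK cells also make the Ifng product, and the 3 NK markers summed to 0 to 0.321 CPM in WT and 0.914 to 1.93 CPM in KO cTreg. Their part in the Ifng difference was not tested. Rad50, a DNA repair gene of the type 2 cytokine locus that lies beyond Il13 from Il4, fell by 0.23 ± 0.06 (0.00521), and Bbs12 fell by 0.48 ± 0.15 (0.0283, or up to 0.136 without WT replicate 1 or 2 or KO replicate 3).

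**Figure D5:**
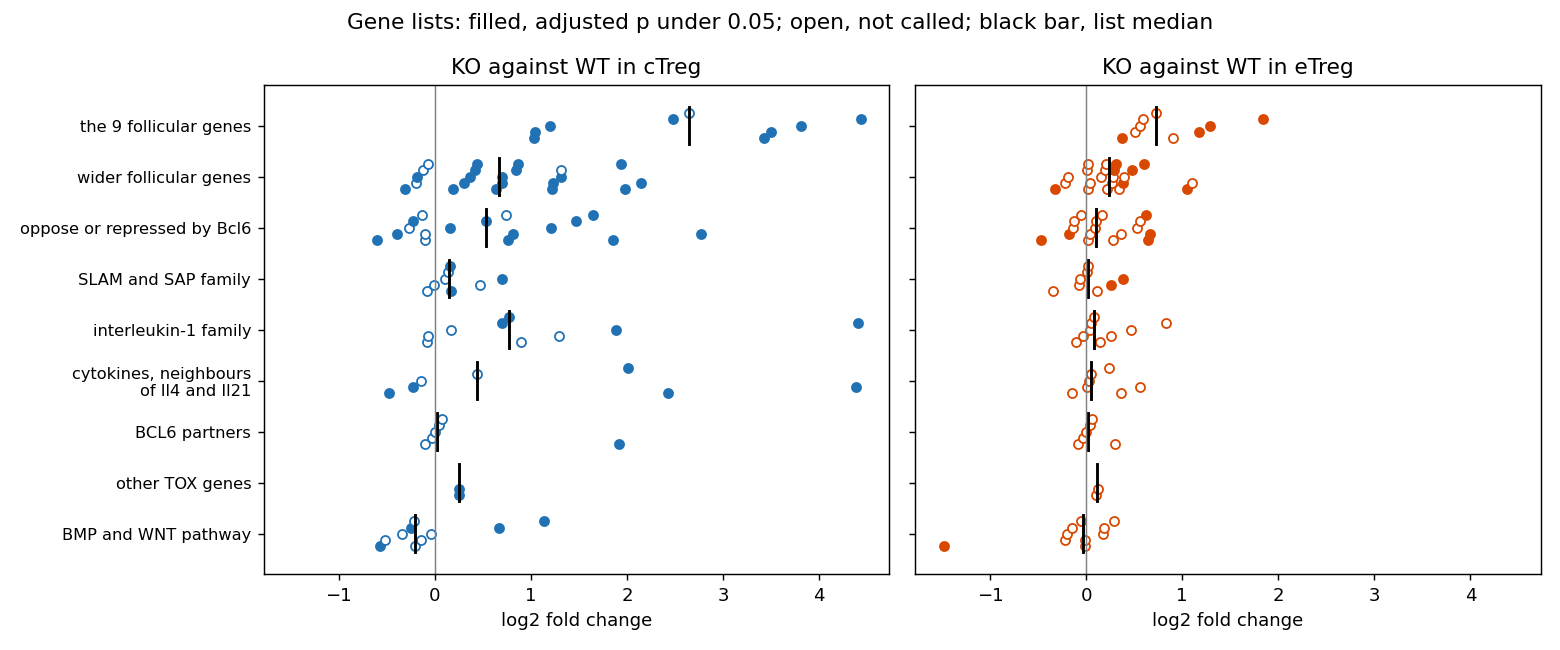
Log2 fold change of KO against WT for the tested genes of each list, in cTreg on the left and eTreg on the right. Each point is a gene, filled where the adjusted p is under 0.05, and black bars are list medians. The 9 follicular genes have medians of 2.65 in cTreg, which is the value of the uncalled low-count gene Il1rn, and 0.73 in eTreg.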

How the data were processed

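Per the labels' protocols, RNA came from Qiagen RNeasy columns, and KAPA RNA HyperPrep libraries were made after ribosomal RNA depletion (RiboErase). The submitters' processing notes name HISAT2 2.2.1, Cell Ranger and mm10 without their roles. The authors deposited 1 table of raw counts, with gene symbols as rows. The counter, gene models and strandedness are not given in the sources used, and reads of overlapping genes are uncertain. The table holds 27 symbols altered to month-like names and 2 symbols on more than 1 line.

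The analysis used edgeR 4.0.16 in R 4.3.3, with filterByExpr (minimum count 10), TMM scaling, 1 fit of the 4 groups over 12 libraries, robust quasi-likelihood F-tests, two-sided, and Benjamini-Hochberg adjustment over 12461 genes in each of 6 contrasts. The threshold for a call was an adjusted p of 0.05. The SE is the log2 fold change divided by the square root of F, and intervals use the fitted degrees of freedom. CPM are TMM-normalised, and RPKM use merged exon lengths of GENCODE vM21. P-values measure the spread between pooled libraries. Count-ratio intervals cover counting error only. No libraries of a group were duplicates (chi-squared per degree of freedom 3.62 to 10.2). Simulated data with known changes were used to test these steps.

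Same-numbered KO and WT eTreg libraries deviated together (correlations 0.257, 0.341 and 0.166), so the block was fitted there. This pairing comes from the data, not the labels. The 9 genes, the lists and the markers were chosen with earlier results of these data known. The rule for other named genes takes, per list and contrast, up to 2 called genes in each direction whose log2 CPM averages 0 or more, by size of change, and the 3 nearest patterns per gene. Some were left out for length. Genes named beyond it were chosen after their values were seen. Alternatives were DESeq2 1.42.0, limma-voom (limma 3.58.1), other scalings and filters, the replicate block, a fit restricted to each contrast's own 6 libraries, and omission of single libraries. Leaving out the 4 libraries numbered 3 was added after seeing the data.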

Additional observations from a re-analysis of the deposited data

Results flagged for a closer look

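For 5 of the 9 follicular genes the KO effect differed between the gates by the interaction term, with a smaller log2 effect in eTreg than in cTreg. The difference was -3.15 ± 0.66 for Il21 (edgeR adjusted p of 0.0180), -2.77 ± 0.57 for Il4 (0.00926), -2.25 ± 0.32 for Il1r2 (0.00221), -1.91 ± 0.28 for Tox2 (0.00333) and -0.66 ± 0.12 for Sh2d1a (0.00395). The Il21 and Il4 values rest on 7 and 6 summed counts in WT cTreg. The Il21 call was lost without any 1 WT cTreg library or KO cTreg replicate 2 (0.0578 to 0.0849) and with limma-voom (0.157). Without the 4 libraries numbered 3, the calls of Il4 (0.162) and Sh2d1a (0.103) were lost.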

How the results depend on the processing

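Of 1167 values for the 9 genes and 6 contrasts under the alternatives, none turned direction, 22 lost their call and 24 gained one. Without the 4 libraries numbered 3, a setting added after seeing the data with 2 libraries per group, calls fell from 3421 to 1444 genes for KO against WT in cTreg, from 829 to 126 in eTreg and from 474 to 87 for the interaction, and the follicular genes called fell from 4 to 2 in eTreg and from 5 to 3 for the interaction. In eTreg 7 of the 9 were called by DESeq2's Wald test, by limma-voom, with the replicate block over all 12 libraries and with the replicate block in the 6 eTreg libraries. The block in the 6 eTreg libraries called 1712 genes in all, or 14% of those tested. By DESeq2, by limma-voom and with the block over all 12 libraries, the total moved less from the 829 of the main fit. In that main fit 3.25% of all genes rose in KO eTreg and 3.40% fell. The block changed 1 further call in each of 2 contrasts, Tox2 in KO cTreg against WT eTreg (adjusted p of 0.0319) and Sostdc1 in the interaction (0.0319). In cTreg same-numbered KO and WT libraries did not deviate together over all genes (correlations -0.105, 0.005 and 0.062), and the labels do not say whether they pair. There the block left 1 SLAM and SAP gene called in place of 3 and 3 cytokines and neighbours in place of 5.

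Leaving out 1 library at a time gave 2534 to 3490 genes called in cTreg, with 6 to 8 of the follicular genes, and 455 to 890 in eTreg, with 4 to 6. It gave 314 to 570 for the interaction, with 4 to 5. The lowest eTreg counts were 455 without WT eTreg replicate 2, 462 without KO eTreg replicate 3 and 497 without WT eTreg replicate 3. All 9 genes were called between the gates in both genotypes under each alternative that tested them. For Il1rn, which passed the main filter on low counts only through eTreg, that direction carries no evidence. Scaling to library size without Rn45s changed the split of genes called in KO against WT eTreg from 405 higher and 424 lower to 301 and 546, with all 9 follicular genes still higher. Low counts limit Il1rn, Il21, Il4 and Sostdc1 in WT cTreg, and Il1rn was below the filter in fits of the cTreg libraries alone.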

Other observations

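Genes of the BMP and WNT pathways, on which the Sostdc1 product acts, were called in shares not far from those of all genes. Of 10 tested, 2 rose and 2 fell in KO cTreg, where 14.8% of all genes rose and 12.6% fell, with a median log2 fold change of -0.21, and 1, the receptor gene Lrp4, fell in KO eTreg by 1.48 ± 0.35 (edgeR adjusted p of 0.0160, or up to 0.0705 without replicate 2 of either eTreg group), with a list median of -0.03. With the replicate block in the eTreg libraries 3 were called, Lrp4, Smad7, which fell by 0.16 ± 0.05 (0.0455), and Smad5, which rose by 0.17 ± 0.05 (0.0392). In that fit 7.54% of all genes rose and 6.48% fell. In cTreg Acvr1, a BMP receptor, rose by 1.13 ± 0.28 (edgeR adjusted p of 0.00620) and Axin2, a WNT target, by 0.67 ± 0.12 (0.00174). Smad7, an inhibitor of TGF-beta family signalling, fell by 0.57 ± 0.06 (6.58e-06), and the WNT co-receptor Lrp6 fell by 0.25 ± 0.05 (0.00186). Of 6 tested corepressor partners and relatives of BCL6, only Zbtb32 was called in cTreg, where 14.8% of all genes rose and 12.6% fell. Zbtb32 rose there by 1.92 ± 0.26 (2.98e-04). In eTreg 0 of the 6 were called by edgeR, DESeq2 or limma-voom, or reached an unadjusted p under 0.05.

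The NK cell gene Klrb1c stood at 11.4 CPM in KO eTreg replicate 2, while the summed level of the 3 NK markers was 0.277 to 0.452 CPM in WT eTreg, 0 to 0.321 CPM in WT cTreg and 0.914 to 1.93 CPM in KO cTreg. In cTreg the log2 fold change of Klrb1c was 3.15 ± 2.02 (edgeR adjusted p of 0.299).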
